A study of Mus musculus with 8 samples.

Results

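The genes described are those of the nuclear genome that encode the mitochondrial respiratory chain and ATP synthase, read in rib (costal) chondrocytes of 7-day-old mice with and without the microRNA gene *Mir140*. They were chosen by name. A member is a protein-coding gene of the GENCODE M21 annotation whose symbol starts with *Nduf*, *Uqcr*, *Atp5* or Cox4 to Cox8, or is *Sdha*, *Sdhb*, *Sdhc* or *Sdhd*, and which reached 0.5 TPM (a transcript level per length, scaled so that each library sums to 1000000) in 4 or more of the 8 libraries. There were 90 members among 17177 genes tested. The names matched 93 protein-coding genes, and 3 stayed under the filter. These were *Cox7b2*, which reached 0.942 TPM in 1 library and 0.340 TPM or less in the others, *Cox8b*, which reached 0.5 TPM in 2 libraries with a highest value of 1.37 TPM, and *Cox8c*, listed at 0 in all 8. A further 13 matching names belonged to other biotypes, mainly pseudogenes, and were not counted.

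The respiratory chain sits in the inner mitochondrial membrane. Complex I takes electrons from NADH and complex II takes them from succinate, complex III passes them through cytochrome c to complex IV, which reduces oxygen, and ATP synthase (complex V) uses the resulting proton gradient to make ATP. Each complex except complex II combines subunits from the nuclear genome with subunits from the mitochondrial genome, and several nuclear subunits exist as paralogues used in different tissues. Growth plate chondrocytes live in cartilage without blood vessels and are known for a strong reliance on glycolysis, although their mitochondria respire.

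The study compared 4 wild-type with 4 *Mir140*-null libraries, all on a C57BL/6J background. The null allele was a CRISPR/Cas9 deletion of the *Mir140* locus made in mixed C57BL/6 and CBA/ca embryos, backcrossed to C57BL/6J, and heterozygotes were then crossed to make separate wild-type and null lines. Cells were released with collagenase and their total RNA was sequenced as stranded, poly(A)-selected libraries of more than 12 M single-end reads of 75 bases each. Whether each library came from one mouse or several is not given in the sources used here, and p-values measure the spread between these libraries.

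The libraries carried cartilage transcripts throughout. The summed level of 12 chondrocyte markers was 65329 to 80839 TPM in wild-type against 48911 to 66600 TPM in *Mir140*-null. *Col2a1*, which was not called, held 70.4% to 76.2% of this sum, and *Acan* was called higher and *Col9a1*, *Col9a3*, *Col11a1* and *Hapln1* lower. The number of genes that reached 0.5 TPM was 17128 to 17950 in wild-type libraries, 15800 in *Mir140*-null replicate 1, 16056 in replicate 2, and 17435 and 16991 in replicates 3 and 4. The summed level of 8 fibroblast and perichondrium markers was 3545 to 6429 TPM in wild-type. It was 896 and 1068 TPM in replicates 1 and 2 of *Mir140*-null, and 5648 and 4280 TPM in replicates 3 and 4. Replicates 1 and 2 stood apart on this sum, and results were also computed without them. The list did not move as a whole. *Pdgfra* was called higher (31.5 to 36.5 TPM in *Mir140*-null, 11.8 to 19.8 TPM in wild-type) and *Dcn* lower. *Col1a1* was at 47.8 and 50.1 TPM in replicates 1 and 2 (wild-type mean 1169 TPM), but *Prrx1* at 12.3 and 8.95 TPM (wild-type mean 10.1 TPM). The summed level of 8 macrophage and leukocyte markers was 36.2 to 62.6 TPM in wild-type against 75.1 to 135 TPM in *Mir140*-null, but *Cd14* alone made this separation. Without *Cd14* the sum was 22.8 to 41.2 TPM in wild-type and overlapped at 19.2 to 36.2 TPM in *Mir140*-null, *Lyz2* was called lower, and *Ptprc* and *Adgre1* were under the filter. The *Mir140* gene itself was listed at 0 in 7 libraries and at 8.86 TPM in *Mir140*-null replicate 2, so these libraries give no check of the genotypes through it. The study genotyped its mice by PCR and sequencing of the locus, and the groups here are those of the labels.

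Most members did not pass the test between genotypes, and those that did lay outside complexes I and II. Higher in *Mir140*-null cells were *Uqcrfs1*, *Uqcrc1* and *Uqcrq* of complex III, *Cox8a* and *Cox5a* of complex IV, and *Atp5b*, *Atp5g3* and *Atp5g2* of complex V. *Ndufa4l2* and *Cox6b2*, both paralogues of complex IV subunits, were lower. In counts, 8 of 90 members (8.89%) were called higher and 2 (2.22%) lower by limma at an adjusted p under 0.05, where 10.5% of all 17177 genes tested were called higher and 6.40% lower. Among the 13118 protein-coding genes tested, 12.7% were called higher and 5.30% lower. The members' shares were below each of these backgrounds, so the members as a whole did not stand out. Without *Mir140*-null replicates 1 and 2, 2 members were called higher and 1 lower, where 2.08% of all genes were called higher and 1.22% lower. The split moved with the scaling of the libraries. It was 5 higher and 3 lower under median-ratio scaling (all genes 7.96% and 7.68%) and 5 higher and 4 lower under quantile normalization (all genes 8.77% and 6.52%).

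The size of the differences was small for most members. The median log2 fold change of the 90 members was 0.04, beside -0.01 for all genes tested and 0.04 for protein-coding genes tested. It turned to -0.07 under quantile normalization and to -0.03 without *Mir140*-null replicate 3, so the members as a group showed no stable direction. Of the 90, 64 lay within 0.25 log2 units of no difference, and *Cox6a2* was the only member beyond 1 log2 unit. These limits are on the log2(TPM + 1) scale, which understates low genes. As ratios of mean TPM, *Cox6a2* was at 0.309, *Cox6b2* at 0.482 and *Atp5g2* at 2.01. The genotypes did not overlap for 11 members that were higher in *Mir140*-null (12.2%) and 3 that were lower (3.33%), where 15.7% and 10.2% of all genes tested had no overlap in these directions.

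The medians differed by complex. They were -0.03 for the 44 complex I members, 0.19 for the 4 of complex II, 0.20 for the 8 of complex III, 0.14 for the 17 of complex IV and 0.06 for the 17 of complex V, with no test between them. Called higher were 0 of 44 members of complex I and 0 of 4 of complex II, beside 10.5% of all genes tested. In complexes III to V, 3 of 8 (37.5%), 2 of 17 (11.8%) and 3 of 17 (17.6%) were called higher. Called lower were 2 of 17 of complex IV (11.8%, beside 6.40% of all genes) and 0 elsewhere. Without *Mir140*-null replicates 1 and 2, only *Uqcrfs1* of complex III and *Cox8a* of complex IV were called higher. The same held with the replicate number as a block. The medians were not stable either. Under quantile normalization they were -0.13, 0.09, 0.06, 0.02 and -0.07 for complexes I to V, and without *Mir140*-null replicates 1 and 2 they were 0.07, 0.21, 0.40, 0.26 and 0.11. Without *Mir140*-null replicate 3 they were -0.10, 0.13, 0.20, 0.07 and -0.05. The complex I median also turned to 0.02 without *Mir140*-null replicate 1 or replicate 2, and the complex IV median was 0.26 without replicate 2.

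**Figure D1:**
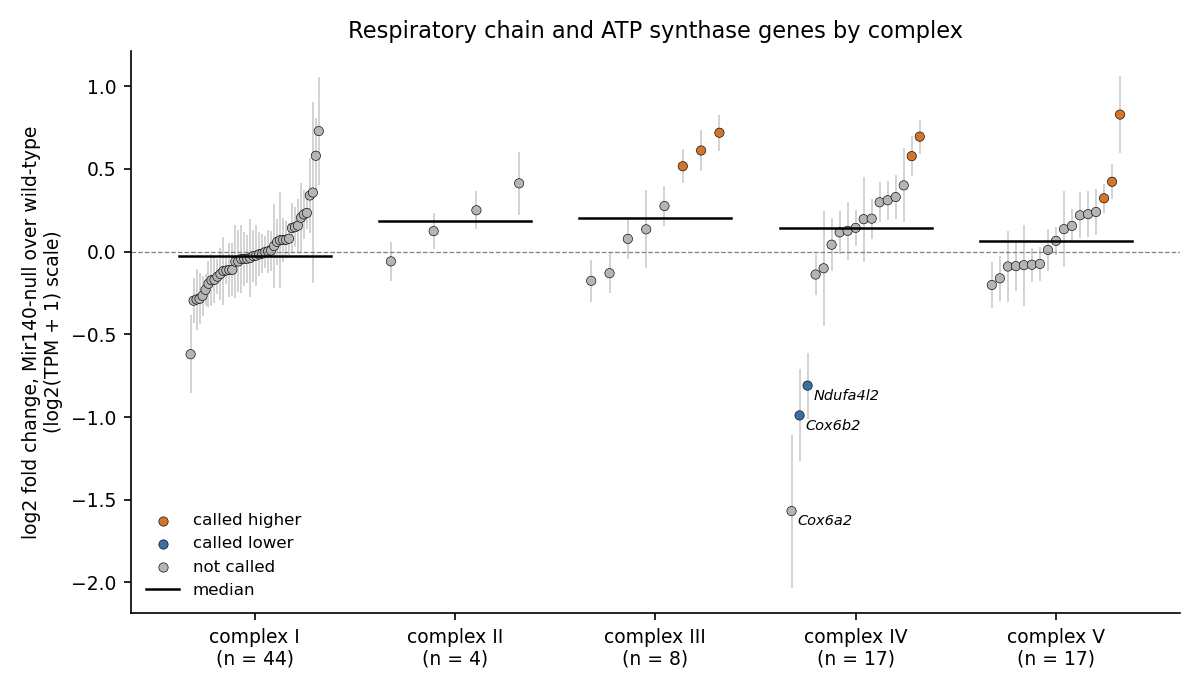
Log2 fold change of each of the 90 members (*Mir140*-null over wild-type, on the log2(TPM + 1) scale), ordered by size within its complex; bars are standard errors from limma and black lines are medians. All called members (8 higher, 2 lower) lie in complexes III, IV and V, and 64 of the 90 lie within 0.25 of 0.

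The microRNA removed in these mice was set beside the members first. RefSeq (GRCm38.p6) lists mature mmu-miR-140-3p at chr8:107551288-107551308 on the plus strand, a form called miR-140-3p.2 by the study, which also described miR-140-3p.1, a form that starts 1 base later. Both are shown with the seed (bases 2 to 8) in capitals, because the shift of 1 base changes the seed.
miR-140-3p.2: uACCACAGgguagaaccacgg
miR-140-3p.1: aCCACAGGguagaaccacgg

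A microRNA lowers messages whose 3′ UTR pairs with its seed. The 7-base sites complementary to these seeds were therefore counted in each gene's 3′ UTR, the longest one annotated, as a description of letters and not of binding. The site of miR-140-3p.1, CCTGTGG, was in 8 of 90 members (8.89%), with 0 of the called members among them, and in 20.2% of 12982 protein-coding genes tested. The site of miR-140-3p.2, CTGTGGT, was in 3 of 90 members (3.33%), namely *Atp5g1*, *Sdhc* and *Uqcrq*, and in 19.0% of the same genes. The members' UTRs were short, with a median of 219 bases beside 1159 for all genes, and the shares were not adjusted for length. The UTR of *Sdhc* held 3 sites of miR-140-3p.1, and those of *Uqcr10* and *Uqcrq* held 1 site each, for miR-140-3p.1 in *Uqcr10* and miR-140-3p.2 in *Uqcrq*. The log2 fold changes of the 8 members with the miR-140-3p.1 site lay between 0.00 and 0.41 and none passed the test. They were 0.41 for *Sdhc*, 0.34 for *Ndufb7*, 0.33 for *Cox7a2l* and 0.28 for *Uqcr10*. The rest were *Atp5g1* at 0.24, *Uqcr11* at 0.13, *Ndufb4* at 0.07 and *Ndufb2* at 0.00. The windows of *Sdhc* and *Uqcr10* are shown as examples from complexes II and III, and that of *Uqcrq* because this gene was called (GENCODE M21, mm10, site in capitals).
*Sdhc* (chr1:171129471-171129497, minus strand): agtgccactgCCTGTGGgctgctggct
*Sdhc* (chr1:171128912-171128938, minus strand): agggcccaggCCTGTGGatggccagct
*Sdhc* (chr1:171128510-171128536, minus strand): atgcccaaggCCTGTGGttcagtcccc
*Uqcr10* (chr11:4702150-4702175, minus strand): caccctgccCCTGTGGgacccgaagg
*Uqcrq* (chr11:53428747-53428773, minus strand): cctgcaggggCTGTGGTagctatgcat

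Of the members called higher, *Uqcrq* was the only one with either site. *Cox8a*, *Uqcrfs1*, *Uqcrc1*, *Cox5a*, *Atp5b*, *Atp5g3* and *Atp5g2* held neither in these UTRs. The other arm, miR-140-5p, was not searched here.

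Called members lay in several complexes, so their promoters were searched for the letters of the factors best known at respiratory chain genes. RefSeq promoters (GRCm38.p6, 250 bases before to 50 after each start) were matched for 74 of 90 members, with 79 promoters. The matches in *Uqcrc1*, *Cox8a* and *Atp5g3* are shown 5′ to 3′ on the gene's strand, with the letters in capitals.
*Uqcrc1*, NRF1 letters (chr9:108936668-108936697, plus strand): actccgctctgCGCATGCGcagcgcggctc
*Cox8a*, ETS letters (chr19:7217604-7217632, minus strand): tttccgaaataCTTCCGGctcgggcgtcc
*Cox8a*, ETS letters (chr19:7217567-7217595, minus strand): cagcgccggaaCTTCCGGctggttcggcc
*Atp5g3*, receptor letters (chr2:73911361-73911389, minus strand): ttgttacaaagTGACCTTgagcgtcttcc

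The *Uqcrc1* promoter held CGCATGCG, the core recognised by NRF1, which is its own reverse complement. It begins 31 bases after the start. The *Cox8a* promoter held CTTCCGG, the reverse complement of the ETS letters CCGGAAG that GABP recognises, once 5 bases before and once 32 bases after the start. The *Atp5g3* promoter held TGACCTT, the reverse complement of the letters AAGGTCA of the estrogen-related receptors, 52 bases before the start. The *Uqcrfs1* promoter held none of the 4 motifs searched on both strands, of which the fourth was AAGATGGC for YY1.

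The NRF1 letters stood in 11 of 79 member promoters (13.9%) and in 1.87% of all 32851 promoters in the table. For ETS the figures were 18 of 79 (22.8%) and 8.86%, for YY1 11 of 79 (13.9%) and 2.75%, and for the estrogen-related receptors 8 of 79 (10.1%) and 4.72%. The ETS letters can share the bases AAG with the YY1 or the receptor letters, and such matches count for both. A motif was found in 37 of the 74 members and in 4 of the 8 called members with a promoter, the same share. The background promoters were not limited to protein-coding genes tested here, as the genes for the 3′ UTR sites were. The part of this difference in the shares was not tested. A match describes the letters alone.

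No catalytic core subunit of complex I passed the test. The 7 nuclear core subunits, which carry the flavin and iron-sulphur clusters that pass electrons from NADH to ubiquinone, had a median log2 fold change of -0.02 and a range of -0.11 to 0.23. *Ndufv1*, which binds NADH, was at 30.0 ± 2.36 TPM (SD, n = 4) in wild-type against 31.7 ± 1.34 TPM in *Mir140*-null, a log2 fold change of 0.08 with a 95% confidence interval of -0.14 to 0.30. *Ndufv2*, its partner, gave -0.02 (-0.32 to 0.29) and *Ndufs1* gave -0.02 (-0.45 to 0.40). *Ndufs7* gave 0.22 (-0.11 to 0.56) and *Ndufs8* gave -0.11 (-0.49 to 0.26). *Ndufs3* was the nearest to a call.

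*Ndufs3*, a core subunit of the matrix arm, was at 49.8, 44.6, 47.1 and 48.0 TPM in wild-type replicates 1 to 4 and at 63.4, 54.1, 51.0 and 55.5 TPM in the *Mir140*-null replicates. All 4 *Mir140*-null libraries were above all 4 wild-type libraries, the only such case in complex I. Its log2 fold change was 0.23 with a standard error of 0.10 and an adjusted p of 0.133.

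The 29 supernumerary subunits of complex I, which surround and stabilise the core, had a median log2 fold change of -0.04, with 18 below 0 and 11 above. None was called. The lowest was *Ndufv3* at -0.62 (adjusted p = 0.106) and the highest was *Ndufb7* at 0.34. The 8 assembly factors named *Ndufaf*, which build complex I and are not part of it, ranged from -0.29 to 0.73 with 4 above and 4 below 0, and none was called. The lowest mean levels of all members were those of the assembly factors *Ndufaf7* and *Ndufaf5* and the structural subunit *Ndufa11*, with wild-type means of 3.41, 3.37 and 2.40 TPM. Their log2 fold changes were -0.29, -0.11 and -0.04.

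Complex II, succinate dehydrogenase, also belongs to the tricarboxylic acid cycle and is built from 4 nuclear subunits alone. *Sdha*, the flavoprotein that oxidises succinate, was at 184, 216, 161 and 160.0 TPM in wild-type against 166, 186, 166 and 169 TPM in *Mir140*-null. The ranges overlapped and the log2 fold change was -0.06 (95% confidence interval -0.33 to 0.21). *Sdhb*, the iron-sulphur subunit, had a wild-type mean of 13.0 ± 0.696 TPM and a *Mir140*-null mean of 14.3 ± 1.41 TPM (log2 fold change 0.12, -0.13 to 0.38). The membrane anchors *Sdhc* and *Sdhd* had higher *Mir140*-null means without passing the test. *Sdhc* was at 43.5, 57.5, 44.7 and 53.0 TPM in wild-type and at 66.1, 46.1, 81.5 and 76.3 TPM in *Mir140*-null, with replicate 2 inside the wild-type range. Its log2 fold change was 0.41 (-0.02 to 0.85, adjusted p = 0.166), and that of *Sdhd* was 0.25 (-0.01 to 0.51, adjusted p = 0.168).

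In complex III, 3 of 8 members were called higher, beside 10.5% of all genes tested. Coordinates of called members are those of GENCODE M21 on mm10. *Uqcrfs1* (chr13:30540308-30545362, minus strand) encodes the Rieske iron-sulphur protein, which moves electrons from ubiquinol to cytochrome c1. It was at 18.2, 18.3, 18.8 and 17.6 TPM in wild-type and at 35.7, 28.1, 31.7 and 27.7 TPM in *Mir140*-null. The wild-type libraries lay within a narrow range and every *Mir140*-null library was above them. The means were 18.2 ± 0.495 and 30.8 ± 3.74 TPM, a ratio of 1.69, with a log2 fold change of 0.72 (standard error 0.11) and an adjusted p of 0.00852. It was called in all 18 alternative settings, with log2 fold changes of 0.58 to 0.77.

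*Uqcrc1* (chr9:108936633-108949623, plus strand), a core protein on the matrix side, was at 30.2, 32.8, 29.1 and 35.4 TPM in wild-type and at 50.03, 42.3, 47.1 and 44.5 TPM in *Mir140*-null. The genotypes did not overlap. Its log2 fold change was 0.52 (standard error 0.10, adjusted p = 0.0169). The call was lost without wild-type replicate 3 (log2 fold change 0.48, adjusted p = 0.0524). It was also lost without *Mir140*-null replicates 1 and 2 together (0.51, adjusted p = 0.0694) and with the replicate number as a block (adjusted p = 0.0637). *Uqcrq* (chr11:53427922-53430831, minus strand), a small subunit next to cytochrome b, was at 68.3, 73.6, 78.6 and 70.8 TPM in wild-type and at 137, 114, 102 and 97.1 TPM in *Mir140*-null. Every *Mir140*-null library was again higher. Its log2 fold change was 0.61 (standard error 0.12, adjusted p = 0.0171). The call was lost without *Mir140*-null replicate 2 (log2 fold change 0.60, adjusted p = 0.0502) and without replicates 1 and 2 together (0.45, adjusted p = 0.0638). It was also lost with the replicate number as a block (adjusted p = 0.0584).

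The other 5 complex III members were not called. *Cyc1*, the cytochrome c1 of this complex, lies outside the naming rule and was not counted among its members. *Uqcrh*, the hinge protein that holds cytochrome c1, was the most abundant, at 212 TPM in wild-type, with a log2 fold change of -0.18. *Uqcr10* gave 0.28 (adjusted p = 0.149), *Uqcr11* gave 0.13, *Uqcrb* gave -0.13 and *Uqcrc2*, the second core protein, gave 0.08. *Uqcrc2* and *Uqcrc1* form a pair in the complex, and they were at 41.1 and 31.9 TPM in wild-type and at 43.7 and 46.0 TPM in *Mir140*-null.

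*Cox8a* (chr19:7215153-7217616, minus strand) had the smallest adjusted p of all members. It encodes a small subunit of complex IV and is the form found in most tissues. It was at 84.2, 104, 91.0 and 79.1 TPM in wild-type and at 140.3, 141, 149 and 149.9 TPM in *Mir140*-null. The *Mir140*-null libraries lay close together and well above the wild-type libraries. The means were 89.6 ± 10.8 and 145 ± 5.12 TPM, a ratio of 1.62, with a log2 fold change of 0.69 (standard error 0.10) and an adjusted p of 0.0083. It was called in all 18 alternative settings, with log2 fold changes of 0.53 to 0.77. Its muscle paralogue *Cox8b* and testis paralogue *Cox8c* were under the filter.

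*Cox5a* (chr9:57521274-57532426, plus strand), a subunit facing the matrix, was at 31.2, 38.002, 33.2 and 32.6 TPM in wild-type and at 59.3, 43.9, 48.5 and 52.3 TPM in *Mir140*-null. No library of one genotype fell within the range of the other. Its log2 fold change was 0.58 (standard error 0.12, adjusted p = 0.0190). The call was lost without wild-type replicate 3 (adjusted p = 0.0543) and without wild-type replicate 4 (0.0549). It was lost too without *Mir140*-null replicates 1 and 2 together (0.0583). In these fits the log2 fold changes were 0.56 to 0.57. With the replicate number as a block the call was also lost (adjusted p = 0.0688). *Cox5b*, which binds zinc, also had no overlap between genotypes but was not called (log2 fold change 0.30, adjusted p = 0.122).

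**Figure D2:**
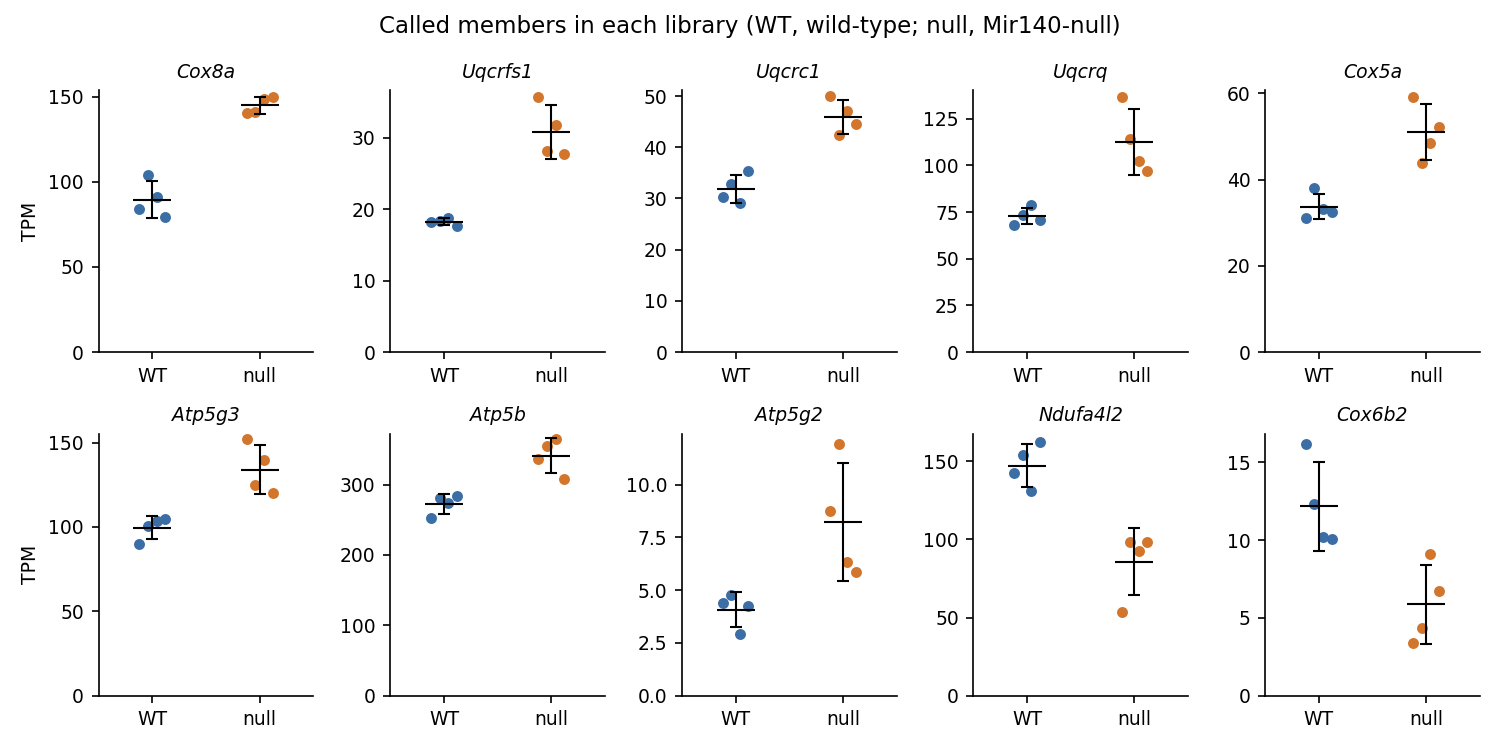
TPM of the 10 called members in each library, with a vertical axis from 0 in each panel; points are libraries, horizontal lines are means and bars are SD (n = 4). The genotypes do not overlap in any panel, with 8 genes higher and *Ndufa4l2* and *Cox6b2* lower in *Mir140*-null.

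The paralogue pairs of complex IV moved unevenly. *Ndufa4* was first named as a complex I subunit and is now placed in complex IV, and *Ndufa4l2* (chr10:127514967-127517154, plus strand) is its paralogue, known as a gene induced in low oxygen. *Ndufa4l2* was the more abundant of the pair in wild-type chondrocytes, at 142, 154, 131 and 162 TPM, and it was at 53.7, 98.6, 92.6 and 98.2 TPM in *Mir140*-null. Every *Mir140*-null library was lower, and replicate 1 was lowest. The log2 fold change was -0.81 (standard error 0.20, adjusted p = 0.0311). The call held without *Mir140*-null replicate 1 (log2 fold change -0.60, adjusted p = 0.0205) and without replicates 1 and 2 together (adjusted p = 0.0491). It was lost without *Mir140*-null replicate 2 (adjusted p = 0.0541) and without each wild-type replicate in turn (adjusted p = 0.0604 to 0.0797). It was also lost with no filter on low values (0.0662) and with the replicate number as a block (0.0547). *Ndufa4* itself was at 52.1, 49.7, 67.8 and 55.8 TPM in wild-type and at 62.4, 45.8, 78.8 and 62.0 TPM in *Mir140*-null, with overlapping ranges and a log2 fold change of 0.13 (-0.27 to 0.53). The ratio of *Ndufa4l2* to *Ndufa4* was 1.93 to 3.10 in wild-type and 0.860 to 2.15 in *Mir140*-null, and these ranges overlapped.

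*Cox6b2* (chr7:4751792-4753094, minus strand), the testis form of the subunit that lies between the monomers of the complex IV dimer, was at 16.2, 12.3, 10.2 and 10.05 TPM in wild-type and at 3.39, 4.34, 9.08 and 6.70 TPM in *Mir140*-null. All *Mir140*-null libraries were lower, with replicates 1 and 2 the lowest. Its log2 fold change was -0.99 (standard error 0.28, adjusted p = 0.0452). The call was lost without *Mir140*-null replicates 1 and 2 together (log2 fold change -0.56, adjusted p = 0.202) and in 7 of the 8 fits that each left out 1 library, all except that without *Mir140*-null replicate 3 (adjusted p = 0.0246 without it, 0.0603 to 0.110 in the others). It was also lost with no filter on low values (adjusted p = 0.0937) and with the replicate number as a block (0.111). Under nuclear protein-coding scaling and a pseudocount of 0.1 the adjusted p lay just past 0.05. *Cox6b1*, the general form, was at 199, 189, 177 and 182 TPM in wild-type and at 224, 188, 261 and 191 TPM in *Mir140*-null, and it was not called (log2 fold change 0.20, -0.08 to 0.48). The ratio of *Cox6b2* to *Cox6b1* was 0.0552 to 0.0814 in wild-type and 0.0151 to 0.0351 in *Mir140*-null, without overlap.

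*Cox6a2*, the heart and skeletal muscle form of another complex IV subunit, had the largest difference of all members and just missed the threshold. It was at 4.89, 9.42, 10.2 and 8.09 TPM in wild-type and at 0.458, 0.958, 4.68 and 3.96 TPM in *Mir140*-null. The ranges did not overlap, with replicates 1 and 2 near 0 and replicate 3 just under the lowest wild-type library. The log2 fold change was -1.57 (standard error 0.46, adjusted p = 0.0519). It was -0.74 without replicates 1 and 2 together (adjusted p = 0.174). *Cox6a2* passed in 5 of 18 alternative settings. These were median-ratio scaling (adjusted p = 0.0413), quantile normalization (0.0374), 1 estimated factor (0.00164), and the fits without *Mir140*-null replicate 3 (0.0329) or replicate 4 (0.0477). *Cox6a1*, the general form, was at 69.2, 74.8, 79.5 and 77.4 TPM in wild-type and at 88.3, 78.9, 109 and 99.97 TPM in *Mir140*-null (log2 fold change 0.31, adjusted p = 0.106).

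Skeletal muscle markers, like *Cox6a2*, summed to less in *Mir140*-null, but they did not all move together. The summed level of 14 muscle markers was 70.4 to 108 TPM in wild-type against 36.0 to 60.9 TPM in *Mir140*-null, without overlap. *Tnnt3*, a troponin, held most of it at 40.4 to 73.1 TPM in wild-type. It overlapped at 28.4 to 54.4 TPM in *Mir140*-null and was not called (adjusted p = 0.136). Of the 14, 5 passed the filter, all with lower *Mir140*-null means, and only *Tnni2* was called lower. *Ckm*, *Mb*, *Myh1*, *Myh3*, *Myh4*, *Myh8*, *Actn3* and *Atp2a1* stayed under 0.6 TPM in every library, and *Ttn* under 0.8 TPM. Among these low genes, *Ckm*, *Mb*, *Myh1* and *Actn3* had slightly higher means in *Mir140*-null and the others lower means. In *Mir140*-null replicates 1 and 2 the low *Cox6a2* and *Cox6b2* levels coincided with the low fibroblast marker sums given above. The part of either marker list in these differences was not tested. In such bulk samples, fewer cells of a type and less RNA per cell cannot be told apart.

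Other paralogues of complex IV were not called. *Cox4i1* was at 183, 187, 199 and 168 TPM in wild-type and at 211, 170.4, 219.6 and 215 TPM in *Mir140*-null. Its paralogue *Cox4i2*, which is known for its use at low oxygen, was at 17.2, 25.6, 19.0 and 27.5 TPM in wild-type and at 23.2, 23.2, 36.5 and 37.1 TPM in *Mir140*-null. Both pairs of ranges overlapped, and the log2 fold changes were 0.14 (-0.11 to 0.39) and 0.40 (-0.11 to 0.91). The ratio of *Cox4i2* to *Cox4i1* was 0.0940 to 0.164 in wild-type and 0.110 to 0.172 in *Mir140*-null.

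In the Cox7a set, *Cox7a2* is the general form, *Cox7a1* the heart and muscle form and *Cox7a2l* a related gene counted here as an assembly factor. *Cox7a2* was at 112, 113, 114 and 117 TPM in wild-type and at 101, 85.7, 129 and 103 TPM in *Mir140*-null, a wider spread around a similar mean. *Cox7a1* was at 6.38, 16.6, 10.7 and 8.34 TPM in wild-type and at 7.66, 5.26, 13.2 and 12.9 TPM in *Mir140*-null. So the muscle form *Cox7a1* was not separated by genotype, with a log2 fold change of -0.10 (-0.90 to 0.69), while *Cox6a2* was, and the difference between these 2 genes was not tested. *Cox7a2l* was at 86.0, 104, 100.3 and 102 TPM in wild-type and at 155, 119, 109 and 115 TPM in *Mir140*-null, without overlap, and its log2 fold change of 0.33 did not pass (adjusted p = 0.117). *Cox7b* was at 117, 110.3, 117 and 64.5 TPM in wild-type and at 116, 98.6, 169 and 87.2 TPM in *Mir140*-null, with overlapping ranges. The remaining complex IV members, *Cox6c* and *Cox7c*, were not called, with log2 fold changes of 0.12 and 0.04.

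**Figure D3:**
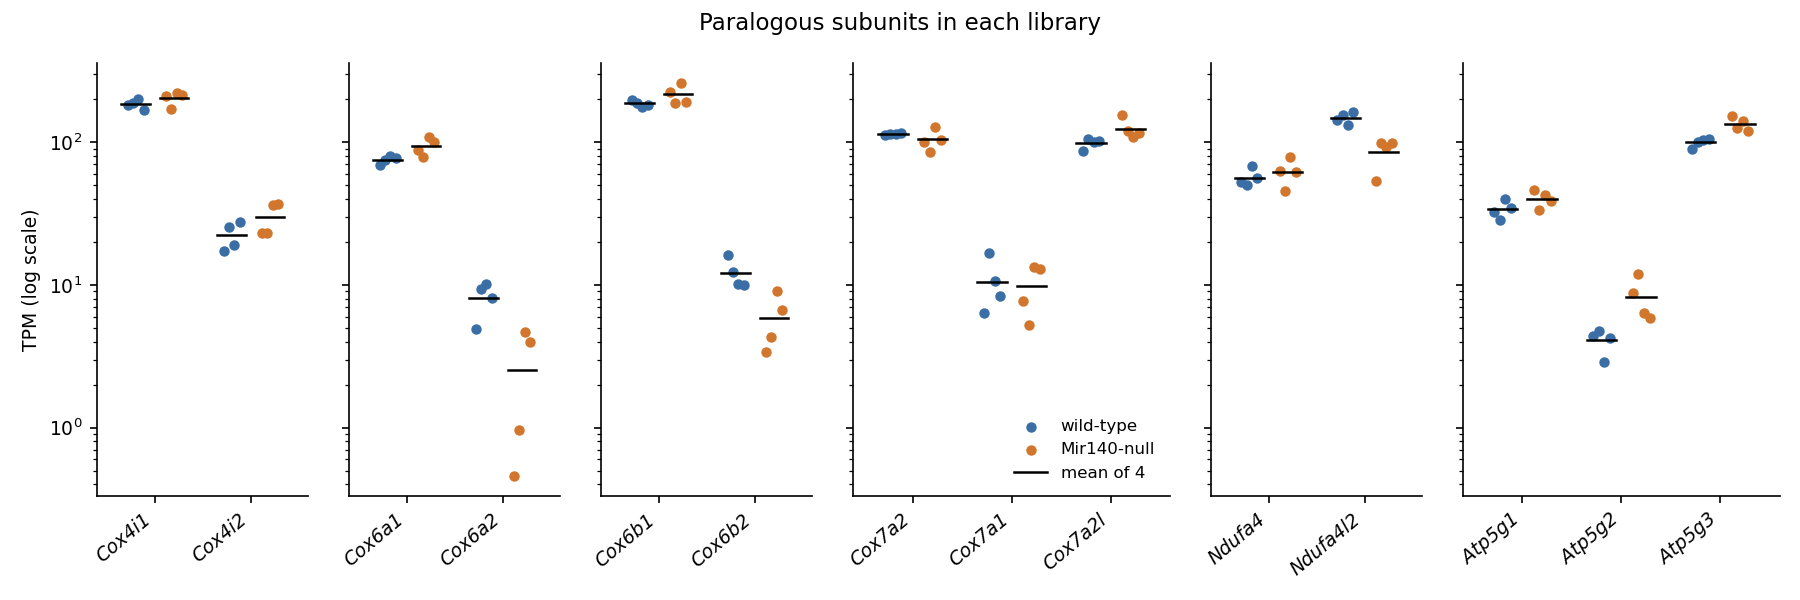
TPM (log scale) of paralogous subunits in each library, grouped by set; points are libraries and black lines are means of 4. Within the Cox6a, Cox6b and *Ndufa4* sets, *Cox6a2*, *Cox6b2* and *Ndufa4l2* are lower in every *Mir140*-null library while *Cox6a1*, *Cox6b1* and *Ndufa4* overlap between genotypes.

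In complex V, *Atp5b*, *Atp5g3* and *Atp5g2* were called higher, the last with a limit set by a copy of the gene. *Atp5b* (chr10:128083273-128090391, plus strand) encodes the catalytic beta subunit, which forms ATP. It was at 252, 281, 274 and 284 TPM in wild-type and at 336, 355, 366 and 309 TPM in *Mir140*-null. All 4 *Mir140*-null libraries were above all wild-type libraries. The log2 fold change was 0.32 (standard error 0.09, adjusted p = 0.0414). The call held in 1 of the 8 fits that each left out 1 library. That was the fit without *Mir140*-null replicate 4 (adjusted p = 0.0409, against 0.0701 to 0.104 in the others). The call was also lost under median-ratio scaling (adjusted p = 0.0715), quantile normalization (0.0938) and with no filter (0.0741). With the replicate number as a block (0.102) and without *Mir140*-null replicates 1 and 2 together (0.152) it was lost too. Its partner *Atp5a1*, the alpha subunit, was at 154 ± 6.27 TPM in wild-type against 161 ± 10.4 TPM in *Mir140*-null (log2 fold change 0.06, -0.13 to 0.26). The subunits of the central stalk also were not called, with log2 fold changes of -0.08 for *Atp5c1*, -0.07 for *Atp5d* and -0.16 for *Atp5e*. The 8 supernumerary subunits of complex V, which form its peripheral stalk and membrane part beside the c ring, ranged from -0.20 to 0.23 with 0 called, and the coupling factor *Atp5s* gave -0.08.

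The c ring turns in the membrane as protons pass. Its subunit is encoded by 3 genes, *Atp5g1*, *Atp5g2* and *Atp5g3*, that give the same mature protein. *Atp5g3* (chr2:73908447-73911326, minus strand) was the most abundant, at 89.6, 100.5, 104 and 105 TPM in wild-type and at 152, 125, 139.7 and 119.9 TPM in *Mir140*-null. The genotypes did not overlap. Its log2 fold change was 0.42 (standard error 0.11, adjusted p = 0.0326). Again the call held in 1 of 8 fits without 1 library, that without *Mir140*-null replicate 4 (adjusted p = 0.0367, against 0.0615 to 0.0715 in the others). It was lost under median-ratio scaling (adjusted p = 0.0590) and with no filter (0.0587). Under quantile normalization the log2 fold change fell to 0.26 (0.0928). The call was also lost with the replicate number as a block (0.0941) and without *Mir140*-null replicates 1 and 2 together (0.114). *Atp5g1* was at 32.4, 28.7, 40.2 and 34.4 TPM in wild-type and at 46.3, 33.6, 42.6 and 38.4 TPM in *Mir140*-null, with overlapping ranges and a log2 fold change of 0.24 (adjusted p = 0.270).

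*Atp5g2* (chr15:102662864-102672352, minus strand) was at 4.41, 4.75, 2.90 and 4.26 TPM in wild-type and at 8.73, 11.9, 6.33 and 5.86 TPM in *Mir140*-null. Every *Mir140*-null library was higher, and the log2 fold change was 0.83 (standard error 0.23, adjusted p = 0.0444). Without *Mir140*-null replicate 1, replicate 2 or any single wild-type replicate the call was lost (adjusted p = 0.0666 to 0.105). It was also lost under median-ratio scaling (0.0663), quantile normalization (0.0607) and with no filter (0.0907). The replicate number as a block (0.0537) and leaving out *Mir140*-null replicates 1 and 2 together (0.183) removed it too. A copy of the gene was listed at a far higher level. The processed pseudogene *Gm10175* on chromosome 7, identical to *Atp5g2* over 645 bases, was listed at 149 ± 5.98 TPM in wild-type against 135 ± 14.8 TPM in *Mir140*-null. The sum of the pair was 153 ± 6.58 TPM in wild-type against 144 ± 13.1 TPM in *Mir140*-null, and its log2 fold change was -0.10 (adjusted p = 0.491), so for the pair the direction turned and the call was lost. The copy made up most of that sum, which therefore mainly follows the copy's own values, and how reads were divided within the pair was not tested.

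Near-identical copies touched other members too. A search of the annotated transcripts for pseudogenes at 95% identity or more over at least 75 bases and 80% of their length found 42 copies, belonging to 23 members. Of these copies 15 passed the TPM filter, and they belonged to 12 members. In 6 members the copies were listed above the member itself. *Cox7c* was at 116 TPM in wild-type and its copy *Gm12338*, with 192 bases on chromosome 11, at 1698 TPM, and no other member or copy read as high. *Cox6c* was at 69.2 TPM beside 202 TPM for *Cox6c2*. *Ndufb4* was at 5.10 TPM beside 48.5 TPM for 2 copies, *Atp5l* at 176 TPM beside 249 TPM for its copies, and *Atp5g1* at 33.9 TPM beside 59.7 TPM for *Gm10039*. The file gives no means to tell how the reads of such pairs were shared out, so the order of levels among these members is uncertain. No copy that met these limits was found for the other called members, namely *Cox8a*, *Uqcrfs1*, *Uqcrc1*, *Uqcrq*, *Cox5a*, *Atp5g3*, *Atp5b*, *Ndufa4l2* and *Cox6b2*. With all copies added to their members, 7 members were called higher and 2 lower, beside 10.5% and 6.41% of all genes tested.

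**Figure D4:**
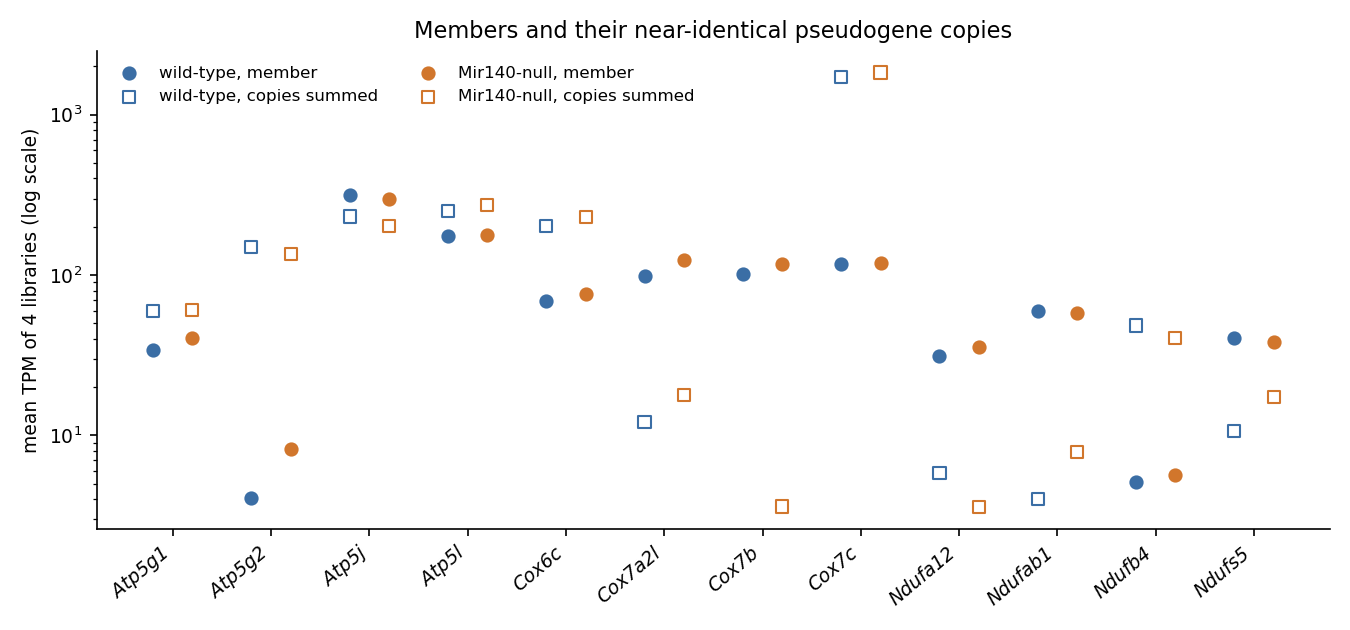
Mean TPM (log scale, n = 4 libraries) of the 12 members that have a pseudogene copy above the filter (filled circles) and of their copies summed (open squares), in wild-type (blue) and *Mir140*-null (orange). The copies lie above the member for *Atp5g1*, *Atp5g2*, *Atp5l*, *Cox6c*, *Cox7c* and *Ndufb4*; the *Cox7b* copy was listed at 0 in wild-type and has no square there.

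Summed over the members of each complex, the levels of the nuclear genes overlapped between genotypes. These sums follow the naming rule and are not those of whole complexes. Complex I includes the *Ndufaf* assembly factors, complex IV includes *Cox7a2l* and *Ndufa4l2*, and complex III leaves out *Cyc1*. Complex I summed to 1416 ± 62.9 TPM in wild-type against 1395 ± 106 TPM in *Mir140*-null, and complex II to 265 ± 29.6 and 279.6 ± 10.8 TPM. Complex III summed to 541 ± 49.9 and 596 ± 41.1 TPM, complex IV to 1438 ± 31.0 and 1585 ± 162 TPM, and complex V to 1748 ± 81.8 and 1866 ± 220.3 TPM. The *Mir140*-null mean was lower by 1.45% for complex I and higher by 5.70% to 10.3% for the others. *Mir140*-null replicate 3 had the highest sum of all 8 libraries in complexes I, IV and V. All 90 members made up 0.520% to 0.555% of the TPM in wild-type against 0.526% to 0.644% in *Mir140*-null. Without their copies, *Atp5j*, a stalk subunit, and *Atp5b* had the highest means over the 8 libraries, at 307 TPM each, followed by *Cox6b1* at 201 TPM. This order changed when copies were added, with wild-type sums of 1825 TPM for *Cox7c*, 548 TPM for *Atp5j* (its copy *Gm11966* was at 232 TPM) and 425 TPM for *Atp5l*. *Atp5j* varied widely within each genotype, from 251 to 390.2 TPM in wild-type.

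Subunits of the same complexes encoded by the mitochondrial genome moved apart from these sums. The 13 mitochondrial genes summed to 23113 to 41317 TPM in wild-type against 47978 to 61432 TPM in *Mir140*-null. Of these, 10 of 13 were called higher, beside 10.5% of all genes tested, with a median log2 fold change of 0.84. Without *Mir140*-null replicates 1 and 2 the count was 0 of 13, where 2.08% of all genes were called higher. It was 3 to 10 of 13 when 1 library was left out. It was 11 under median-ratio scaling or quantile normalization, 10 with the replicate number as a block, and 3 without the filter (2.67% of all genes). The levels in replicates 3 and 4 were as high as in the others, with sums of 61432 and 50689 TPM beside 49059 and 47978 TPM in replicates 1 and 2. The nuclear members summed to 0.134 to 0.235 of the mitochondrial sum in wild-type and 0.105 to 0.116 in *Mir140*-null. Both sums share the same total of TPM, and *mt-Atp8*, which overlaps *mt-Atp6*, alone was listed at 14232 ± 4652 TPM in wild-type against 25015 ± 2653 TPM in *Mir140*-null.

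**Figure D5:**
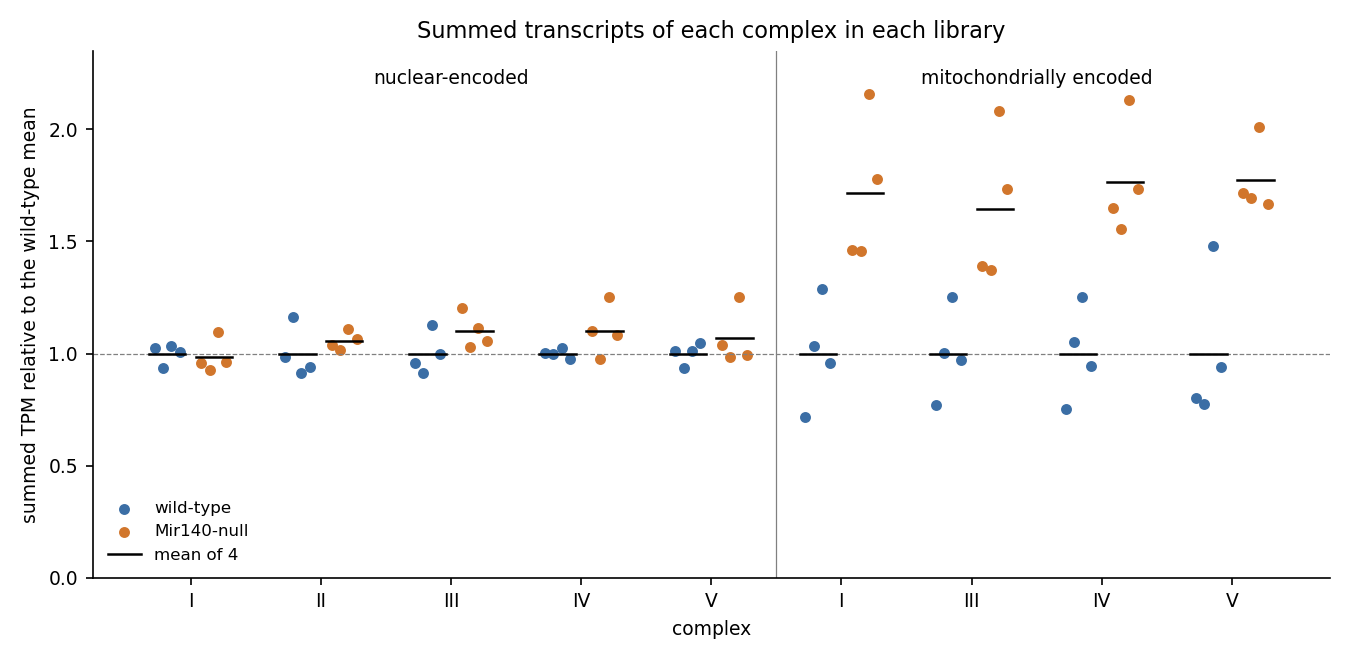
Summed TPM of each complex in each library, divided by the wild-type mean of that complex, for nuclear members (left) and mitochondrially encoded subunits (right); points are libraries and black lines are means of 4. Nuclear sums overlap between genotypes in all 5 complexes, and the mitochondrially encoded sums do not overlap in the 4 complexes that have them.

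Lists around the chain gave counts in both directions. Of 47 tested assembly factors outside the naming rule, 4 were called higher (8.51%) and 0 lower, namely *Sco2*, a copper chaperone for complex IV, *Coa5*, *Tmem186* and *Tmem70*, the last of which helps to build ATP synthase. This share was below the 10.5% of all genes called higher, and the count was 0 to 2 when each library was left out in turn. *Coa5* rose from 2.80 ± 0.308 to 4.45 ± 0.526 TPM and *Sco2* from 5.75 ± 1.17 to 9.72 ± 0.684 TPM. Of 9 tested electron carriers, 0 were called higher and *Etfa* and *Sqor* were lower (22.2%, beside 6.40% of all genes called lower). With each library left out in turn the count called lower was 0 or 1, and *Etfa* was near the threshold (adjusted p = 0.0492). *Sqor*, which feeds electrons from sulphide to ubiquinone, had a log2 fold change of -0.99 (adjusted p = 0.0348). *Cyc1* (0.23), the cytochrome c1 of complex III, and *Cycs* (0.58), the cytochrome c that links complexes III and IV, were not called.

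Of 18 tricarboxylic acid cycle and pyruvate dehydrogenase genes, 4 were called higher (22.2%, beside 10.5% of all genes) and 0 lower. *Dlst*, the E2 subunit of 2-oxoglutarate dehydrogenase, was at 38.8, 49.5, 35.7 and 41.5 TPM in wild-type and at 125, 95.6, 90.2 and 84.5 TPM in *Mir140*-null. It had the largest difference of this list, with a log2 fold change of 1.23. The others were *Dld* (0.55), *Mdh2* (0.49) and *Cs* (0.44), citrate synthase. Among 14 regulators of mitochondrial biogenesis and mitochondrial DNA expression, 6 were called higher (42.9%) and 1 lower, with a median log2 fold change of 0.35. Higher were the transcription factors *Nrf1* (0.75) and *Gabpb1* (0.78), the coactivator *Pprc1* (0.84), and *Tfam* (0.70), *Tfb2m* (0.998) and *Twnk* (0.69), which act on mitochondrial DNA. *Polg2* was lower (-0.77), and *Ppargc1a*, a coactivator of the same family as *Pprc1*, was not called (-0.77, adjusted p = 0.0728). The counts called higher were 1 to 4 of 18 and 2 to 5 of 14 when each library was left out in turn. Without *Mir140*-null replicates 1 and 2, 1 of 18 and 0 of 14 were called higher, beside 2.08% of all genes.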

How the data were processed

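Rib chondrocyte RNA from 4 wild-type and 4 *Mir140*-null libraries was quantified by the authors with Salmon against the mm10 transcriptome, checked with FastQC 0.11.7, and normalised with RUVSeq before DESeq2 tests. The deposited values used here are TPM per gene, which keep no read depth, so no counting interval can be given; the normalisation behind the TPM values is not given in the sources used here. Of 52325 identifiers per library, 99.8% matched GENCODE M21, and 540 lines that repeated an identifier were counted once. Genes with at least 0.5 TPM in 4 or more of the 8 libraries (17177) were tested on log2(TPM + 1) with limma 3.58.1 (R 4.3.3; mean-variance trend, genotype alone, all 8 libraries, two-sided), with Benjamini-Hochberg adjustment over all genes and a threshold of 0.05. Fold changes are on that scale and understate low genes. The script was tested on simulated data. Count tests could not be used. Copies were found with blastn 2.17.0.

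Members and gene lists (electron carriers, assembly factors, tricarboxylic acid cycle, biogenesis regulators, mitochondrially encoded subunits, and chondrocyte, fibroblast, muscle and macrophage markers) were chosen with earlier results of these data known. Named were the subunits of complex II, the core subunits, paralogues, the 3 called members with the smallest p in each direction per complex, and the 3 highest and 3 lowest members. *Uqcr10*, *Uqcr11*, *Uqcrb*, *Uqcrc2*, *Uqcrh*, *Cox5b*, *Cox6c*, *Cox7c*, *Atp5s*, *Ndufv3*, *Ndufb2*, *Ndufb4* and *Ndufb7* were named after their values were seen. A core subunit of complex I is not reported here by name. Alternatives covered scaling, filter, pseudocount, 1 estimated factor, a replicate block, added copies and left-out libraries.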

Additional observations from a re-analysis of the deposited data

Results flagged for a closer look

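In 4 of 92 groups of 4 libraries (a named member or summed level in 1 genotype), 1 library lay far from the other 3, with a gap to its neighbour, divided by the whole range, above Dixon's critical value at the 95% level. Chance gives about 1 in 20 such groups. *Atp5j*, a stalk subunit of ATP synthase, was at 417 TPM in *Mir140*-null replicate 3 (gap over range 0.858). *Cox7b* was at 64.5 TPM in wild-type replicate 4 (0.876). *Ndufa4l2* was at 53.7 TPM in *Mir140*-null replicate 1 (0.868). *Sdha* was at 186 TPM in *Mir140*-null replicate 2 (0.866).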

How the results depend on the processing

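Over 40 named members and 18 alternatives, 646 of 717 log2 fold changes kept their direction and side of the threshold or were called in neither setting (29 of the latter changed sign), 64 lost a call, 6 gained one and 1 reversed. The reversal was *Atp5g2* with its copy added (-0.10), an alternative chosen after seeing the data. Only the 8 members called higher and 2 called lower could lose a call, and all 64 losses and the reversal lie among them. *Cox8a* and *Uqcrfs1* were called in all 18, with adjusted p of 0.00474 to 0.0446 and 0.00488 to 0.0424. *Uqcrc1* and *Uqcrq* were called in 15, *Cox5a* in 14 and *Ndufa4l2* in 11. *Atp5b*, *Atp5g2*, *Atp5g3* and *Cox6b2* were called in 6 each.

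The 8 members called higher and 2 lower became 5 and 3 under median-ratio scaling, 5 and 0 without the filter, 5 and 4 under quantile normalization, 9 and 4 with 1 estimated factor, 8 and 1 under nuclear protein-coding scaling or a pseudocount of 0.1, and 2 and 1 without *Mir140*-null replicates 1 and 2. With each library left out, they were 3 to 8 and 0 to 4. Without the filter the other counts were 1 of the assembly factors, 2 regulators, 0 carriers and 3 mitochondrially encoded subunits. Without *Mir140*-null replicates 1 and 2 they were 0 assembly factors, 0 regulators, 0 carriers, 0 mitochondrially encoded subunits and 1 tricarboxylic acid cycle gene. Carriers fell to 1 under median-ratio scaling, cycle genes to 2 under quantile normalization and assembly factors to 2 at a mean of at least 5 TPM. With each library left out, the counts were 0 to 2 assembly factors, 2 to 5 regulators, 0 to 1 carriers, 1 to 4 cycle genes and 3 to 10 mitochondrially encoded subunits. The complex III median moved from 0.205 to 0.057 (quantile) and 0.40 (without replicates 1 and 2). The cause of these shifts was not tested, beyond the fewer libraries in the fits that left some out.

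The labels number replicates 1 to 4 in both genotypes. Deviations of same-numbered libraries correlated at 0.0308, 0.016, 0.0688 and -0.00911. Such values cannot show whether same-numbered libraries shared a litter or a batch, and the labels give only the number. With the number as a replicate block, 2 members were called higher and 0 lower, beside 3.91% and 2.64% of all genes tested. The other counts were 0 assembly factors, 2 regulators, 1 carrier, 1 cycle gene and 10 mitochondrially encoded subunits.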
